A study of Macaca mulatta with 22 samples.

Results

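GABA, the main inhibitory transmitter of the cortex, acts through receptors of type A and type B. The type A receptor is a chloride channel built of several subunits, and the type B receptor is a G protein-coupled dimer that opens potassium channels and limits transmitter release. Sevoflurane, an inhaled general anaesthetic, potentiates the type A receptor, so the transcripts of this pathway encode part of its own target. N6-methyladenosine (m6A) is the most common internal modification of mRNA. It lies mostly around the stop codon and in the 3′ untranslated region, and reader proteins that bind it alter the splicing, decay and translation of the transcript.

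Described here are 4 genes of this pathway, GABBR1, GABRD, GABRA4 and SLC32A1, out of 3671 genes with an m6A peak. They were chosen from the peak lists themselves, as GABA genes that carry peaks, by the gene the caller gave each peak, and hold 21 of 10069 peaks. How many animals have a peak in each gene is therefore a description. The rule of that choice did not use the presence of peaks in treated against control animals, which was tested across all genes. The choice was made with earlier results of these data known.

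RNA of the prefrontal cortex was fragmented, precipitated with an m6A antibody and sequenced. The donors were rhesus macaque infants aged 35 days. The sevoflurane group held 5 animals, the females F, S2 and S3 and the males D and S1. They inhaled sevoflurane at about 2.5 to 3% in sessions of 4 h, near days 7, 21 and 35 of life. The control group held 6, the females C, C1, C2 and C3 with the males A and B, and they are labelled only as controls, and the labels used here give no sham treatment for them. Each animal has 1 list of peaks, with a p-value and a fold enrichment per peak that are the authors' own. No read totals come with the lists, so depth is unknown and the number of animals limits the precision.

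Lists were longer in sevoflurane animals, with 852 to 1673 peaks, than in control animals, with 452 to 1210 (log2 difference 0.93, p = 0.0152 by a two-sided exact permutation test with 462 splits). Among controls C3, with 1210 peaks, stood apart from the others, which had 452 to 703. Every count of animals below is read beside these lengths. RNA levels were not analysed here, so a missing peak can mean less methylation, less RNA or fewer reads. In bulk cortex, fewer cells of a type and less RNA per cell cannot be told apart either.

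GABBR1, on chromosome 4 from 30046362 to 30091216 (rheMac8 assembly, minus strand, ENSMMUG00000021483), encodes the type B receptor subunit that binds GABA. It carried a peak in all 5 sevoflurane animals and in 5 of 6 control animals, all except C1, whose list was the shortest. Only 132 of the 3671 genes (3.6%) had a peak in 10 or 11 animals. SLC32A1, on chromosome 10 from 25332949 to 25337812 (minus strand, ENSMMUG00000003376), encodes the vesicular transporter that loads GABA and glycine into synaptic vesicles. It had a peak in 2 of 5 sevoflurane animals (D and S3) and 3 of 6 control animals (B, C1 and C3). The gene was thus found in fewer animals than GABBR1, in either group.

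GABRD, on chromosome 1 from 1054288 to 1059518 (plus strand, ENSMMUG00000019086), encodes the delta subunit of type A receptors outside the synapse, which carry tonic inhibition. Its peak was in 2 of 5 sevoflurane animals (F and S2) and in 1 of 6 control animals (B). GABRA4, on chromosome 5 from 46893760 to 46960728 (minus strand, ENSMMUG00000009526), encodes the alpha4 subunit, which joins delta in such receptors in rodents. It had a peak in 1 of 5 sevoflurane animals (S3) and 1 of 6 control animals (C). No animal had a peak in GABRD and in GABRA4 together, which with so few animals is a description and was not tested.

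No difference between the groups in how often one of the 4 genes had a peak passed the test. The share of sevoflurane animals minus that of control animals was 16.7 percentage points for GABBR1 (Fisher's exact p = 1). It was 23.3 points for GABRD (Fisher's exact p = 0.545, adjusted p = 0.901 over 1486 genes), 3.33 points for GABRA4 and -10 points for SLC32A1 (Fisher's exact p = 1 and adjusted p = 1 for each). GABBR1 was outside the adjusted test, which took genes found in 2 to 9 animals. Of those 1486 genes 1.82% passed an unadjusted p under 0.05 with a higher share after sevoflurane and 0% with a higher share in controls, and 0% passed after adjustment. These shares count 641 genes in 2 animals and 305 in 3, none of which could reach such a p by Fisher's exact test. With 1 odds factor fitted for each animal from gene presence, the balance turned. At such a p, 4 genes were then more often found after sevoflurane and 14 in controls. With 5 against 6 animals the smallest Fisher's exact p any gene can reach is 0.00216, and the limit depends on how many animals have the gene. It is 0.455 for a gene in 10 animals, as GABBR1, 0.0606 in 3, as GABRD, and 0.182 in 2, as GABRA4. For these genes even a complete separation of the groups could not have passed, so the test could not decide. Only SLC32A1, in 5 animals, could have passed, and for it modest differences could not be seen.

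**Figure D1:**
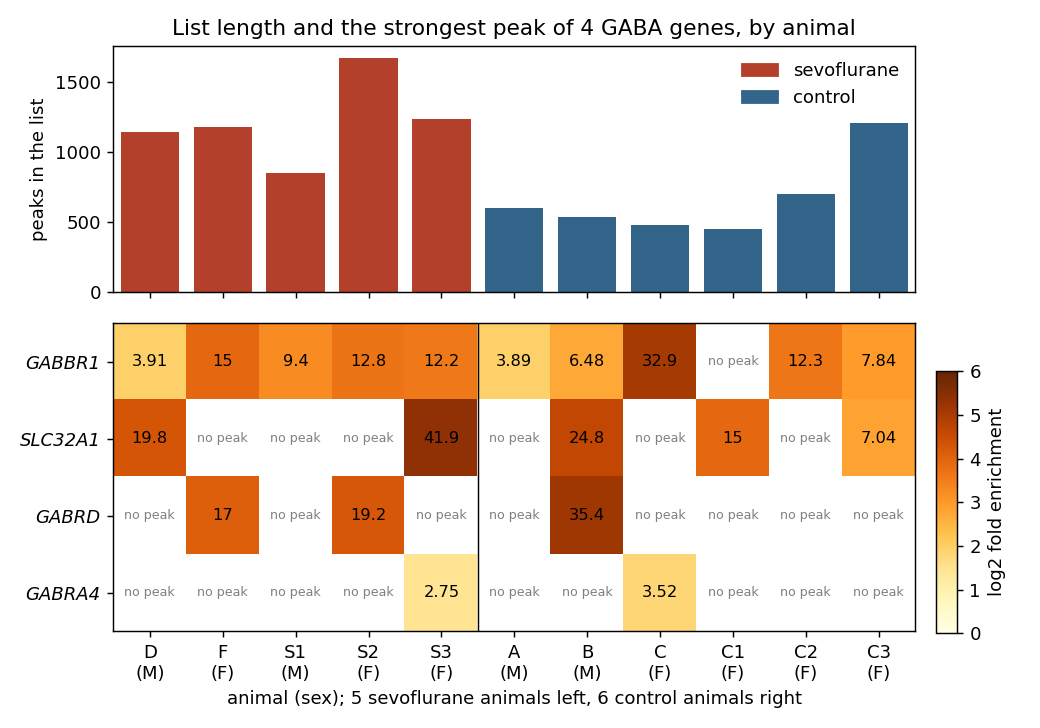
Peaks in each animal's list (upper panel, bars) and the authors' fold enrichment of the strongest peak of each gene (lower panel, the number in a cell is the fold and its colour the log2 fold). GABBR1 is filled in 10 of 11 animals, SLC32A1 in 5, GABRD in 3 and GABRA4 in 2, and cells without a peak occur in both groups.

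The number of these genes with a peak was 2 in D, 2 in F, 1 in S1, 2 in S2 and 3 in S3, against 1 in A, 3 in B, 2 in C, 1 in C1, 1 in C2 and 2 in C3. B, with 535 peaks, had as many of the 4 genes as S3 with 1236, and more than S2 with 1673. C1, the animal without a GABBR1 peak, had one in SLC32A1.

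The GABBR1 peak lay at the same place in all 10 animals. Joined across animals it spanned 270 bases, from 30062685 to 30062954, and 31 bases, from 30062774 to 30062804, were common to all 10. By contrast, 73.0% of the 5155 regions built from all peaks in the same way were found in 1 animal, and 2.46% in 10 or 11. The peak fell in 1 exon, given as number 2 of 23 in transcript ENSMMUT00000067958.1. Numbers in these tables rise with the coordinate in 95 of 97 minus-strand transcripts where this could be seen, and they do so between the 2 places with a peak in GABBR1 itself. From the 5′ end this exon is therefore number 22, the next to last. The peak lay 16323 to 16412 bases from the annotated 3′ end, counted along the genome with introns, and overlapped 6 of the transcripts listed for the gene.

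The authors' fold enrichment of this shared peak varied as much within the groups as between them. It was 3.91 in D, 15.0 in F, 5.23 in S1, 12.8 in S2 and 12.2 in S3, against 3.89 in A, 6.48 in B, 32.9 in C, 12.3 in C2 and 7.84 in C3. The ranges overlap, and the highest and the lowest value both belong to controls. The p-value of the peak, also the authors', was 2e-12 in D, 3.2e-19 in F, 1.3e-06 in S1, 1e-24 in S2 and 4.6e-10 in S3. In controls it was 1.5e-09 in A, 6.8e-08 in B, 1e-09 in C, 1.5e-09 in C2 and 3.7e-07 in C3. D, F, S2 and S3 had smaller p-values than any control, and S1 had the largest of all. These values rank peaks within a list and, with depth unknown, were not tested between groups.

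The shared GABBR1 peak was longer in sevoflurane animals. It measured 181 bases in D, 270 in F, 151 in S1, 240 in S2 and 180 in S3, against 151 in A, 150 in B, 120 in C, 150 in C2 and 90 in C3. No sevoflurane peak was shorter than the longest control peak, and S1 and A had the same 151 bases. The mean was 204 ± 48.9 bases after sevoflurane and 132 ± 27.0 in controls (SD, n = 5 each), a ratio of geometric means of 1.54. This length comparison was chosen after the values had been seen. The log2 difference of 0.62 had an exact permutation p of 0.0159 (two-sided, 252 splits, adjusted p = 0.369 over 199 regions), so it passed 0.05 before adjustment and not after.

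**Figure D2:**
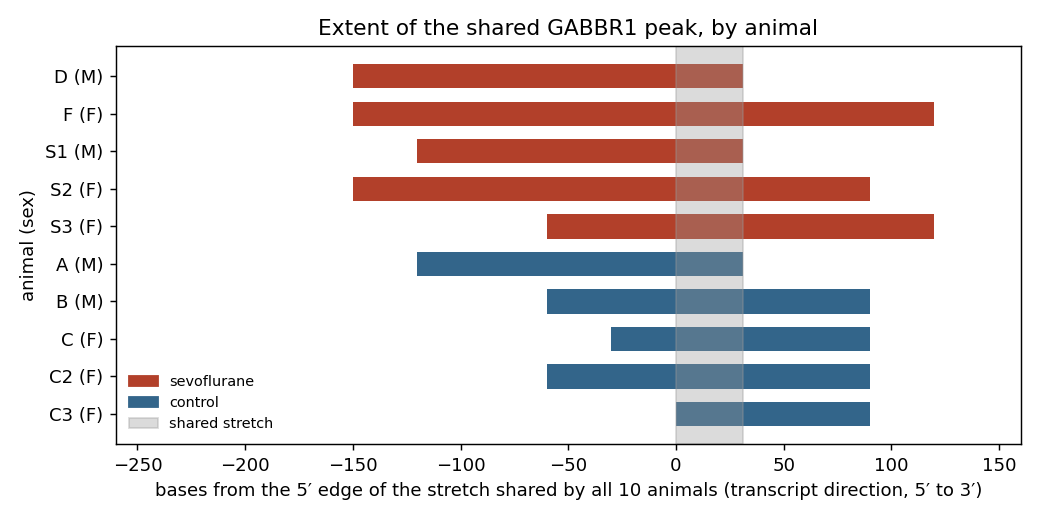
Extent of the shared GABBR1 peak in each of the 10 animals that have it, in bases from the 5′ edge of the 31-base stretch common to all (grey band), along the transcript. Bars reach up to 150 bases on the 5′ side in D, F and S2 and 0 bases in C3.

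By the group means, most of the difference lay on the 5′ side of the common stretch. There the peak reached 150 bases in D, 150 in F, 120 in S1, 150 in S2 and 60 in S3, against 120 in A, 60 in B, 30 in C, 60 in C2 and 0 in C3. The means were 126 ± 39.1 and 54 ± 44.5 bases in sevoflurane and control animals (SD, n = 5 each), a difference of 72 bases (exact permutation test over 252 splits, p = 0.0556). On the 3′ side they were 47.4 ± 45.0 and 47.2 ± 26.4 bases (SD, n = 5 each, exact permutation p = 1). Single animals ran there from 0 to 89 bases after sevoflurane and from 0 to 59 in controls. The split by side divides the same lengths, already seen, around edges set by these peaks. It was made for GABBR1 alone and is a description.

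GABBR1 was 1 of many shared regions with longer peaks in sevoflurane animals. Of the 199 regions found in at least 4 animals of each group, 12.6% had longer peaks after sevoflurane at an unadjusted exact permutation p under 0.05 and 0% had shorter ones, and 0% passed adjustment in either direction. The mean log2 length was higher after sevoflurane in 157 of the 199, with a median difference of 0.19. GABBR1 lay above that median, with 29 regions above it. Over all peaks of a list, shared or not, the median exonic length was 144.7 ± 13.3 bases in the sevoflurane lists (SD, n = 5) and 149.5 ± 1.05 in the control lists (SD, n = 6, exact permutation p = 0.719). It was 121 in S3 and 150 to 151 in D, F, S1 and S2, against 148 to 151 in the controls. Within the controls, C3 had the longest list and the shortest GABBR1 peak. Within the sevoflurane group, S1 had the shortest list (852 peaks) and the shortest GABBR1 peak (151 bases). S2 had the longest list (1673 peaks) and a peak of 240 bases, shorter only than that of F. A link between list length and peak length was not tested. Without C3 the log2 difference in GABBR1 peak length was 0.49 (exact permutation p = 0.0238).

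**Figure D3:**
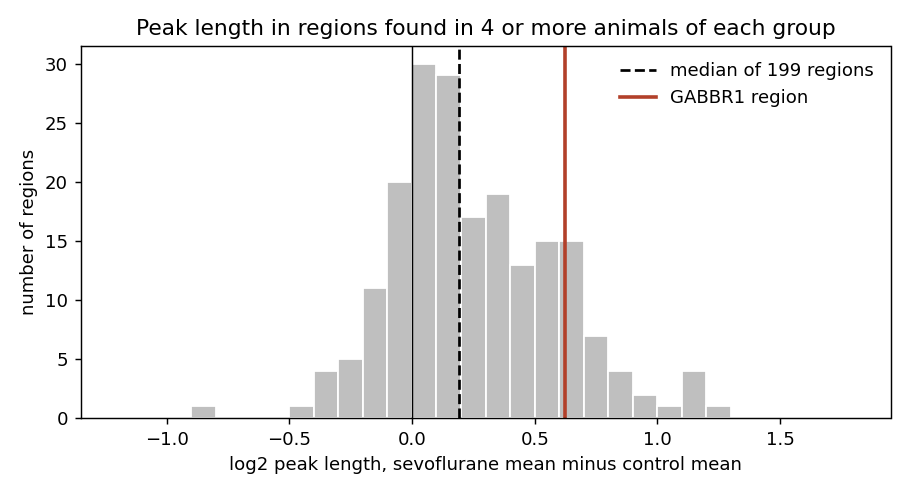
Histogram of the difference in mean log2 peak length, sevoflurane minus control, over the 199 regions found in at least 4 animals of each group. The GABBR1 region (red line, 0.62) lies to the right of the median of all regions (dashed line, 0.19).

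By sex, the GABBR1 peak averaged 230 ± 45.8 bases in sevoflurane females and 120 ± 30 in control females (SD, n = 3 each), with no overlap (log2 difference 0.95, exact permutation p = 0.10, the smallest possible). In males it averaged 166 ± 21.2 bases after sevoflurane and 150.5 ± 0.707 in controls (SD, n = 2 each, log2 difference 0.14, exact permutation p = 0.667). Between the sexes these differences were 0.81 apart on the log2 scale, more in females (exact permutation of sex within treatment, 100 relabellings, p = 0.08), which does not pass 0.05.

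S1 had a second GABBR1 peak of 2 blocks, 82 and 8 bases long, between 30090243 and 30091036. It lay 180 bases from the annotated 5′ end, in exon 2 of 23 counted from there, with a fold enrichment of 9.40. In S1 it was stronger than the shared peak by enrichment (9.40 against 5.23) and by p-value (5.4e-07 against 1.3e-06). No other animal had a peak in that place.

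SLC32A1 and GABRD carried their peaks close to the annotated 3′ end of the gene. All 5 SLC32A1 peaks fell between 25333127 and 25333423, in the last exon of 2, with the nearer edge 178 to 356 bases from the 3′ end. The 3 GABRD peaks fell between 1059400 and 1059518, in the last of 8 exons. Of all 9549 peaks whose caller gene and annotated gene were the same, 12.3% came within 500 bases of the 3′ end, and of the 21 peaks in these 4 genes 8 did, the ones in SLC32A1 and GABRD. The peaks of GABBR1 and GABRA4 lay farther away. These distances run along the genome with introns, not along the mRNA. GABBR1 and GABRA4 span 44855 and 66969 bases, against 4864 for SLC32A1 and 5231 for GABRD.

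The SLC32A1 peak was 238 bases long in D and 179 in S3, against 120 in B, 119 in C1 and 119 in C3. Both sevoflurane peaks were longer than each control peak, with 2 against 3 animals, which is a description. Its fold enrichment was 19.8 in D and 41.9 in S3, against 24.8 in B, 15.0 in C1 and 7.04 in C3, so the groups overlapped. The C3 peak was placed apart from those of B and C1, with 0 bases shared with either, and met the peak of S3 by 1 base and that of D by 89. The p-values were 1.7e-08 in D and 2e-08 in S3, against 5.1e-06 in B, 4.1e-06 in C1 and 0.00022 in C3. The C3 peak was the weakest of the 21 by p-value, where the lists reach up to 0.001.

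GABRD had the same 89 bases, up to the last base of the gene, in F and S2, and B had 90 bases that ended 29 bases before it. All 3 shared 60 bases. The fold enrichment was 17.0 in F and 19.2 in S2, against 35.4 in B. The authors' class was 3′ UTR for F and S2 and exon for B, though the places differ by 30 bases at the start. As a region it was in 2 sevoflurane animals and 1 control animal (Fisher's exact p = 0.545, adjusted p = 0.906 over 1265 regions, of which 1.5% passed an unadjusted p under 0.05 with a higher share after sevoflurane and 0% with a higher share in controls). As with genes, a region in 3 animals could not reach an unadjusted p under 0.05. The SLC32A1 region was in 2 sevoflurane and 3 control animals (Fisher's exact p = 1, adjusted p = 1).

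**Figure D4:**
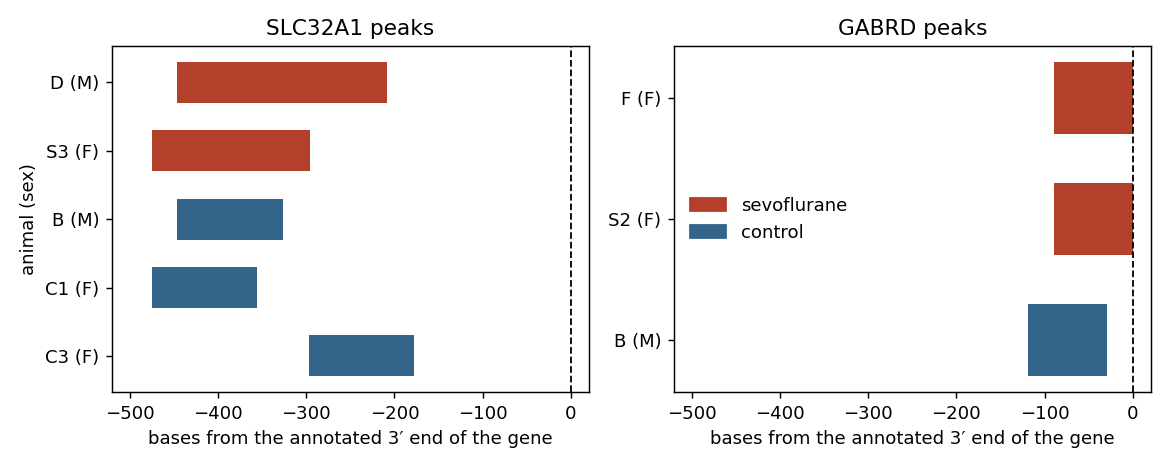
Extent of each SLC32A1 peak (left) and GABRD peak (right) in bases from the annotated 3′ end of the gene (dashed line), by animal. SLC32A1 peaks reach up to 474 bases from the end and GABRD peaks within 119 bases.

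The GABRA4 peaks of S3 and C had no base in common. That of S3 had 2 blocks of 50 and 40 bases between 46941432 and 46944229, and that of C had 2 blocks of 64 and 26 bases between 46946311 and 46960143, with introns between the blocks. Measured from the 5′ end, their centres lay 26.7% (S3) and 11.2% (C) along the gene. Their fold enrichment was 2.75 in S3 and 3.52 in C, with p-values of 9.1e-05 and 1.9e-05. So no place in GABRA4 was found in more than 1 animal, and both peaks were weak in their lists.

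Within their own lists, SLC32A1 and GABRD stood in the upper part by enrichment, GABBR1 ranged widely and GABRA4 stood near the bottom. The strongest SLC32A1 peak stood at percentiles of 77.4 and 94.9 in the 2 sevoflurane lists, against 59.0, 78.4 and 79.1 in the 3 control lists. GABRD stood at 74.9 and 81.5 in sevoflurane lists, against 87.9 in B. GABBR1 had a median of 73.5 over the 5 sevoflurane lists (30.1 to 76.3) and of 61.7 over the 5 control lists (22.4 to 85.5). GABRA4 stood at 10.03 in S3 and 14.9 in C. By these medians GABRA4 came last and GABBR1 next to last in both groups, while SLC32A1 stood above GABRD in sevoflurane lists and below it in the control lists. The points of SLC32A1, GABRD and GABBR1 overlap, and ranks from lists of different length show no change between groups.

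**Figure D5:**
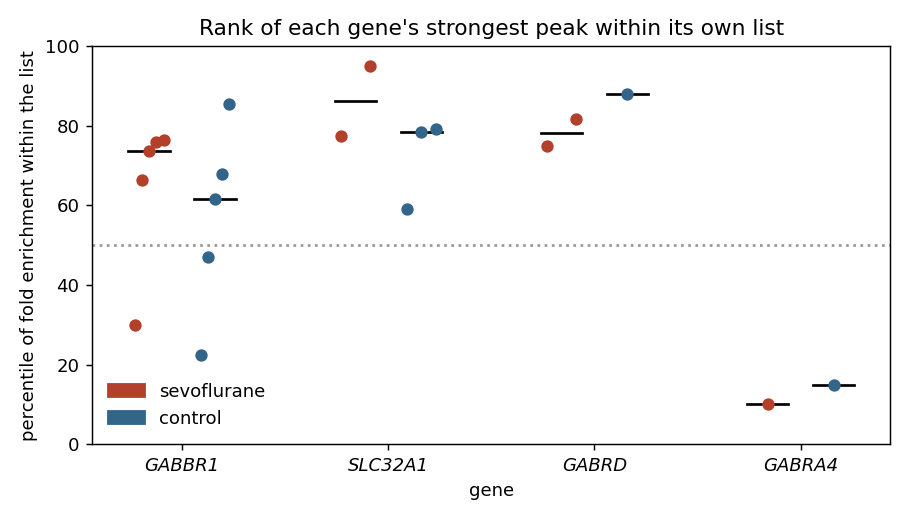
Percentile of the authors' fold enrichment of each gene's strongest peak within the list of its animal (points), with the median per group (bars) and the middle of a list (dotted line at 50). GABRA4 lies at 10.03 and 14.9, and all SLC32A1 and GABRD points lie above 50.

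The wider pathway was described with 5 lists of 58 genes, of which 20 had a peak in any animal and 16 were other than the 4 genes. Between the groups, 15 of the 20 had a peak in some sevoflurane animal and 15 in some control animal. The share of animals was higher after sevoflurane for 12 and higher in controls for 8, with a median difference of 16.7 points. Over all 3671 genes, 2833 had a peak in some sevoflurane animal and 2021 in some control animal, the share was higher after sevoflurane for 2572 and in controls for 1018, and the median was 20 points. Of the 9 found in 2 to 9 animals, 0 passed an unadjusted Fisher's exact p under 0.05 (smallest 0.182), with 1.82% of all genes tested passing toward sevoflurane. GABRA4, SLITRK3, GABRD and WNK1, each in 2 or 3 animals, could not have passed. Under the odds factor fitted for each animal from gene presence, 0 of the 20 did (smallest p = 0.181, by exact enumeration).

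A gene whose symbol is in none of the name tables counts as having no peak, and 8 of the 9 enzymes and transporters and 15 of the 16 scaffold and trafficking genes had a symbol there. Among enzymes and transporters of GABA 3 of 9 had a peak. ABAT, the transaminase that breaks GABA down, had one in 1 sevoflurane animal and 3 control animals (Fisher's exact p = 0.545, adjusted p = 0.901). The controls A, C and C2 shared its region on chromosome 20 from 8818027 to 8818206 (plus strand), and the peak of S2 lay elsewhere. ALDH5A1, the next enzyme of that route, had a peak in S3 alone. GAD1 and GAD2, which make GABA, had no peak in any list.

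Of 19 type A receptor subunits 2 had a peak, GABRD and GABRA4, and the other 17 had none, the common synaptic subunit GABRB2 among them. Of 8 type B receptor genes and partners 4 did. KCNJ3, a subunit of the potassium channel that the type B receptor opens, had a peak in 3 sevoflurane animals (D, F and S1) and 2 control animals (C1 and C3), all 5 in the region on chromosome 12 from 41370225 to 41370405 (plus strand; Fisher's exact p = 0.567, adjusted p = 0.901). KCNJ6, another subunit of such channels, had one in B, and KCTD8, an auxiliary receptor subunit, in S1. GABBR2, the partner that completes the receptor dimer, had none.

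In the list of inhibitory synapse scaffolds and trafficking proteins 9 of 16 had a peak. GABARAPL1, a relative of the protein GABARAP that binds type A receptors, had a peak in all 5 sevoflurane animals and in 5 of 6 controls, the same 10 animals as GABBR1 (Fisher's exact p = 1). Its region was on chromosome 11 from 10574506 to 10574744 (plus strand), with a peak length of 167 ± 33.9 bases after sevoflurane and 161 ± 45.1 in controls (SD, n = 5 each, exact permutation p = 0.865). IQSEC3, a gephyrin-binding protein of inhibitory synapses, had a peak in 4 sevoflurane and 2 control animals (Fisher's exact p = 0.242, adjusted p = 0.635), and all 6 had the region on chromosome 11 from 132954 to 133222 (plus strand). SLITRK3, an adhesion protein of inhibitory synapses, had one in D and F and in 0 controls (Fisher's exact p = 0.182, adjusted p = 0.606), in 2 different regions. SHISA7 (S2), PLCL1 (S1), GABARAPL2 (C1), and NSF and UBQLN1 (C3) each had a peak in 1 animal.

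Chloride transport had peaks in 2 of 6 genes. SLC12A5, the neuronal transporter KCC2 that keeps chloride low enough for GABA to inhibit, had a peak in 3 sevoflurane animals (D, S1 and S2) and 1 control animal (C) (Fisher's exact p = 0.242, adjusted p = 0.635). These were spread over 4 regions, and the commonest was in 2 animals, both sevoflurane. Its fold enrichment was 2.73 in D, 4.31 in S1 and 3.59 in S2, against 2.87 in C, all low in their lists. WNK1, a kinase that regulates such transporters, had a peak in 1 sevoflurane animal and 2 control animals (Fisher's exact p = 1, adjusted p = 1).

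The genes whose presence over the 11 animals was most like that of each gene were found by the Jaccard index, which divides the animals shared by the animals with either gene. GABBR1 had the same 10 animals as 8 other named genes (index 1), and by closeness of percentile the first 3 were GABARAPL1, KDM5C and SOGA3. PITPNB had the same 3 animals as GABRD (index 1), and C1H1orf216 and SPTBN4 followed at 0.75. HDAC11 was most like SLC32A1 at 0.833, and IPO13 and PRRC2A followed at 0.714. These indices are descriptions over 11 animals.

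Most cell type markers had no peak, while the neuronal markers RBFOX3 and NEUROD2 had one in more animals than SLC32A1, GABRD or GABRA4. Of 8 pan-neuronal markers 2 did, RBFOX3 in 3 sevoflurane and 4 control animals and SYT1 in 0 and 2. Of 11 glutamatergic neuron markers 3 did, NEUROD2 being in 3 sevoflurane and 4 control animals. Interneuron markers, the cells that make GABA, had a peak in 5 of 19 (NPY, CALB1, DLX1, LHX6 and ERBB4), each in 1 animal, with 0 to 1 per sevoflurane animal and 0 to 2 per control animal. PVALB, SST and VIP, which define the main interneuron classes, had none. Astrocyte markers had peaks in 2 of 8, microglial in 1 of 8, endothelial and blood in 0 of 8, 7 of which had a symbol in the name tables. Oligodendrocyte and precursor markers did in 3 of 10, 8 of which had a symbol, with 0 to 2 per sevoflurane animal and 0 in every control. PDGFRA was in 3 against 0 (Fisher's exact p = 0.0606, adjusted p = 0.606), and MBP and OLIG2 were each in 1 sevoflurane animal. Over all 3671 genes with a peak, 2833 had one in some sevoflurane animal and 2021 in some control animal. Peaks do not measure RNA level, so these counts do not give the makeup of the tissue, and its part in the values above was not tested.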

How the data were processed

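HISAT2 2.1.0, StringTie, cutadapt, Trim Galore 0.5.0 and the rheMac8 assembly were used, per the submitters' processing notes, which are held here without the role of each. The peak caller, and whether it used the input libraries, is not given in the sources used here. Each deposited table holds, per the file headers, 1 animal's peaks with a p-value, log10 scores of that p-value and of its false discovery rate (negative numbers), and a fold enrichment (a ratio whose denominator is not stated). All p-values were at most 0.001. The 11 input samples were not analysed here.

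Peak starts count from 0, so 1 was added. A gene had a peak if its identifier stood in the column of the caller's gene. Symbols came from the supplied table for 3235 identifiers and from the peak tables for 250, and 186 stayed unnamed. Regions join peaks whose exonic blocks overlap by at least 1 bp on a strand. Fisher's exact test, adjusted by Benjamini-Hochberg, was run on genes and regions found in 2 to 9 animals. Single values had exact permutation tests (SciPy 1.17.1, Python 3.11.15). Alternatives were a peak p-value of at most 1e-05, lists of equal length, the annotation column's gene, a Rasch model with 1 odds factor for each animal, strata by sex and by naming style, a replicate block, 50% reciprocal overlap, no filter on the number of animals, and leaving out each animal. The tests were tested on simulated lists. The labels name 11 animals, each with 1 precipitated and 1 input sample, so each list comes from a separate animal.

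The genes, lists and tests were chosen with earlier results of these data known. Named were the 4 genes, each list gene with a peak, and up to 3 genes most like each of the 4 that was in 3 or more animals. Some genes with a peak are given only as counts or are not reported here. No sequence is shown, since no genome of the files' build was used here.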

Additional observations from a re-analysis of the deposited data

Results flagged for a closer look

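A list far from the others of its group was that of control animal C3, with 1210 peaks, where the other 5 controls had 452 to 703. The gap to the next list was 0.669 of the range, above Dixon's 95% critical value for 6 animals. C3 has the GABBR1 and SLC32A1 peaks, and without it the list length difference was 1.12 on the log2 scale (exact permutation p = 0.00794).

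The GABBR1 fold enrichment of 32.9 in control animal C stood apart from the other 4 controls, which had 3.89 to 12.3. Its gap was 0.7101 of the range, just above that critical value for 5 animals. Chance gives about 1 such value in 20 groups, and 10 groups were examined.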

How the results depend on the processing

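No alternative run gave any of the 4 genes an exact p under 0.05 (lowest 0.143, GABRD in females), but the sign changed for GABRD, GABRA4 and SLC32A1 under some of them. Many of these runs could not give such a p. Males, either naming style and the replicate block held too few animals. By Fisher's exact test on all 11 animals, too many had a GABBR1 peak and too few one in GABRD or GABRA4. The lack of such a p there decides nothing. The sevoflurane minus control share turned to -16.7 points for GABRD and for GABRA4 and to 6.67 for SLC32A1 with lists of equal length. With the stricter p-value it was 3.33 for GABRD, 6.67 for SLC32A1 and 0 for GABRA4, which then had no peak. With the odds factor, as observed minus expected share of sevoflurane animals, it was -6.05 for GABRA4. In males alone it was -50 for GABRD and 0 for the other 3 genes, and in single-letter names alone it was -33.3 for GABRA4, 16.7 for SLC32A1 and 0 for GABBR1. Leaving out each animal gave 0 to 20 points for GABBR1, 8.33 to 40 for GABRD, -16.7 (without S3) to 20 (without C) for GABRA4 and -25 to 0 for SLC32A1. The cause of these moves was not tested.

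The number of genes more often found after sevoflurane at an unadjusted p under 0.05 was 27, with 10 at the stricter p-value, 4 with lists of equal length, 4 with the odds factor (and 14 more often in controls, against 0 as deposited), and 31 to 85 without 1 animal (leaving out D gave 55, F 56, S1 85, S2 46, S3 69 and C3 59). For regions it was 19, with 11 at the stricter p-value, 4 with lists of equal length and 22 to 68 without 1 animal (leaving out D gave 39, F 42, S1 68, S2 32, S3 62 and C3 43). The log2 list length difference was 0.80 in males, 1.04 in females, 1.11 in single-letter and 0.73 in numbered animals (exact permutation p = 0.333, 0.0857, 0.10 and 0.20), and 0.80 to 1.12 without 1 animal. For the GABBR1 peak length, whose alternatives were chosen after seeing the data, it was 0.14 in males, 0.95 in females, 0.66 in single-letter and 0.69 in numbered animals (exact permutation p = 0.667, 0.10, 0.10 and 0.20), and 0.49 to 0.72 without 1 animal (exact permutation p = 0.00794 to 0.0238). Apart from list length in females, these strata were too small for a p under 0.05.

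The numbers 1 to 3 in animal names occur in both groups, and the labels do not say that they pair animals. Deviations from the group means correlated by 0.0628, 0.000159 and 0.0234 between same-numbered animals. Between different-numbered animals they correlated by -0.0826 to 0.0594. So few and so small values cannot decide whether animals were paired. No pairing was used, since the labels give none. With the number as a replicate block the log2 list length difference was 0.73 (exact p = 0.25, the smallest possible) and that of GABBR1 peak length 0.84 over 2 pairs (exact p = 0.50). Counts of genes under the block, in males and in either naming style were not run, since no gene could pass there.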
